A study of Drosophila melanogaster with 3 samples.

Results

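The regions described here are the binding sites of the transcription factor Traffic jam (tj) at promoters whose annotated transcription starts all point the same way. A member is a peak of the reproducible (IDR) list whose summit lies within 500 bp of an annotated start, with every start inside that distance on the same strand. Transposable elements were left out of the starts. The rule uses position alone and no signal value. It chose 3650 of the 10688 summits of the list (34.2%, 95% Wilson interval 33.3 to 35.1%), which fell in 3351 distinct regions. They are called same-strand promoter peaks below. The other summits were 1513 both-strand promoter peaks, with starts on both strands inside the same distance, and 5525 peaks away from promoters. All intervals on shares cover counting error only.

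The series holds 1 group of 3 biological replicates. Each was chromatin from whole adult female Drosophila melanogaster of the transgenic line tj-GFP, which stably makes tj with GFP, elsewhere labelled tj-eGFP, fused to its C terminus; the age of the flies is labelled unknown. Sonicated fragments of 200 to 800 bp were recovered with an anti-GFP antibody and sequenced, and what was deposited is called peaks. A second condition or untagged flies were not analysed here. The sources used do not say whether the line keeps an untagged tj, and in whole animals binding in different cell types cannot be told apart. The p-values below measure the spread between these 3 samples.

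Traffic jam belongs to the large Maf family of basic leucine zipper (bZIP) factors, which bind DNA as dimers at sites built on the short site TGCTGA, to which the core TGCTGAC adds a base. In the fly ovary it is known from somatic cells, including follicle cells, where it acts on adhesion genes and on the somatic piRNA pathway. Fly promoters of regulated genes often carry an initiator, a TATA box or GA-rich elements. Those of broadly used genes often carry elements such as the DRE and Ohler 1, and many are shared by a pair of diverging genes.

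The motifs compared below were counted over all windows of each class, and the sequences at the strongest same-strand summits are shown here as examples. They are from the NCBI Release 6 assembly (dm6), written 5′ to 3′ along the strand of the gene, with the short site TGCTGA or its complement TCAGCA in capitals, and with the whole core where it is present. Each spans 50 bp to either side of the summit, except that at most 29 bases are given where the summit lies in an annotated UTR, as at brat and CG32772. The windows are chr2L:2130516-2130616 at Glyp, chr3R:31713376-31713476 at ttk, chr3L:9367696-9367796 at CG4452, chr2L:19134025-19134053 at brat, chr3R:15287890-15287990 at Tm1 and chrX:4909175-4909203 at CG32772, all for genes on the plus strand.
Glyp: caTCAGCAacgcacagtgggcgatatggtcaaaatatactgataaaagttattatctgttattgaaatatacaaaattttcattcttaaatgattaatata
ttk: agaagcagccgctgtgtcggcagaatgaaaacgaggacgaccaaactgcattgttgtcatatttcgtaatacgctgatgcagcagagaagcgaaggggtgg
CG4452: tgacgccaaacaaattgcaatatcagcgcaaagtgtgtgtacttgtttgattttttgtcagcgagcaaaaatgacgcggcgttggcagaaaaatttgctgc
brat: acgtgtgtgagtgttggtttgtttgaaag
Tm1: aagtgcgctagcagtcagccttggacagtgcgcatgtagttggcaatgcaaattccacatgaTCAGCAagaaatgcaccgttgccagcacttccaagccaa
CG32772: aaaatacaaaaaaaaaacgcattcgaacg

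A further 4 of the strongest 20 are shown because their windows of 100 bp to either side of the summit hold the whole core TGCTGAC; they are cut back where an annotated UTR begins. They are chrX:13759283-13759483 at Yp3 on the plus strand, and chr3L:9497367-9497538 at path, chrX:7944749-7944949 at orion and chrX:10877596-10877624 at CG1637, all on the minus strand.
Yp3: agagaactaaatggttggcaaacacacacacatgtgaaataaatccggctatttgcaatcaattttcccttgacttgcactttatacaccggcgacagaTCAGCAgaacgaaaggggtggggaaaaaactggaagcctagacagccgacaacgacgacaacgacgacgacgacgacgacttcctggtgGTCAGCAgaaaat
path: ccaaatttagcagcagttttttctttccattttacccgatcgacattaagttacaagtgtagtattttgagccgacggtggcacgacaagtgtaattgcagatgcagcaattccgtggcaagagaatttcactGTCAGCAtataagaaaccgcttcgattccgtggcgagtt
orion: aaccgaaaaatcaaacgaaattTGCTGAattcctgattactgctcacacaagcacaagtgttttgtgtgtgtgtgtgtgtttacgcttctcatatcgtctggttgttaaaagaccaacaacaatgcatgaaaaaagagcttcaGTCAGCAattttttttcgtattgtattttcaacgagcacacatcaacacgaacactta
CG1637: tgatttggcaatgttttTGCTGACtgcgt
At Yp3 the summit lies in a short site and the whole core is near the edge of the window. At CG1637 the core lies beside the summit. The printed windows at ttk, CG4452, brat and CG32772 hold neither string.

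The depth of each replicate is unknown, since the lists hold no read numbers. The deposited signal is the peak caller's value, with no stated unit. At the IDR peaks matched in all 3 replicate lists its median was 113.6, 242.1 and 160.6 in replicates 1, 2 and 3. Values below are therefore relative signals, in which 1 is the median of a replicate over the 10265 IDR peaks matched, to within 200 bp, in each of the 3 replicate lists. Of the same-strand promoter peaks, 3486 (95.5%) were matched in all 3 lists, 150 in 2, 13 in 1 and 1 in none. As a description over those 3486 peaks, which share libraries, the rank correlation of relative signal (Spearman's rho) was 0.767, 0.757 and 0.768 for the 3 pairs of replicates. The median SD of a peak's log2 relative signal over replicates was 0.32 at same-strand promoter peaks, 0.32 at both-strand promoter peaks and 0.28 at peaks away from promoters.

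The members belonged to 2535 genes by their nearest start, of which 1724 had 1 member, 616 had 2 and 195 had 3 or more. A single start position lay within 500 bp of 2938 members, and starts of more than 1 gene lay within it for 144. Protein-coding genes supplied the nearest start for 3354 members (91.9%) and non-coding RNA genes for 234. A further 34 had a tRNA gene, 14 a snoRNA gene, 8 a pseudogene and 6 an snRNA gene nearest. By the annotation at the summit itself, 1327 lay in a 5' UTR, 1154 in an intron, 866 between genes, 153 in an exon of a non-coding gene, 101 in coding sequence and 49 in a 3' UTR. In the last 50 bp inside the limit of the rule, 173 members had median relative signals of 1.04, 1.09 and 1.05 in replicates 1, 2 and 3. In the first 50 bp outside it, the 156 summits that would have been same-strand had medians of 1.12, 1.21 and 1.02.

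The strongest same-strand peaks were at Glyp and ttk. Glyp, which encodes glycogen phosphorylase, had relative signals of 22.4, 21.7 and 26.4 in replicates 1, 2 and 3, with the summit at -247 bp from its start, negative being upstream (2L, 2130125 to 2131059, intergenic). The gene of the transcriptional repressor Tramtrack, ttk, had 23.6, 18.7 and 28.3 at a summit at -441 bp (3R, 31712799 to 31714226, intergenic). These 2 peaks stood above every other member in each replicate, at log2 relative signals of 4.55 ± 0.16 and 4.54 ± 0.18 (limma, SE, n = 3). CG4452 followed with 13.7, 14.8 and 17.0 in an intron 369 bp downstream of a start. The non-muscle myosin heavy chain gene zip had 12.1, 14.4 and 17.0, and the translational repressor gene brat 10.8, 13.4 and 14.6 in its 5' UTR. The tropomyosin gene Tm1 had 13.7, 7.96 and 15.3, so that replicate 2 was well under the others.

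The next of the strongest 20 were lower and closer together, as the plot of the 20 strongest peaks shows. The yolk protein gene Yp3 had 10.3, 11.4 and 12.4, and path, the gene of an amino acid transporter, had 10.5, 10.2 and 12.4. The microRNA gene mir-994 had 9.06, 10.8 and 10.9 at a summit at -279 bp from its annotated start. Starts of 6 genes, mir-994 among them, lay within 500 bp of that summit. Bhmt, a methyltransferase gene of methionine metabolism, had 9.47, 9.37 and 11.4, and sad, which encodes a cytochrome P450 of ecdysone synthesis, had 10.3, 8.71 and 11.0. The topoisomerase I gene Top1 had 10.0, 7.75 and 10.6, and alc, the gene of a regulatory subunit of AMP-activated kinase, had 9.61, 7.66 and 10.4. The remaining members of the 20 were CG32772, CG5112, orion, CG5921, CG1637, CG42336 and CG4238, and the lowest single value among all 20 was 7.37, at CG4238 in replicate 2.

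Of these 20 summits, 14 lay upstream of the nearest start and 6 downstream, 6 lay on X, and 6 held the core TGCTGAC within 100 bp. For 6 of the 20 a start of the other strand lay within 1000 bp, at 556 bp for brat. With a window of 1000 bp those 6 would count as both-strand peaks. All 20 passed the moderated test against the median peak (limma, largest adjusted p = 0.00041), a description here because they were ranked by a signal made from the same replicates.

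**Figure D1:**
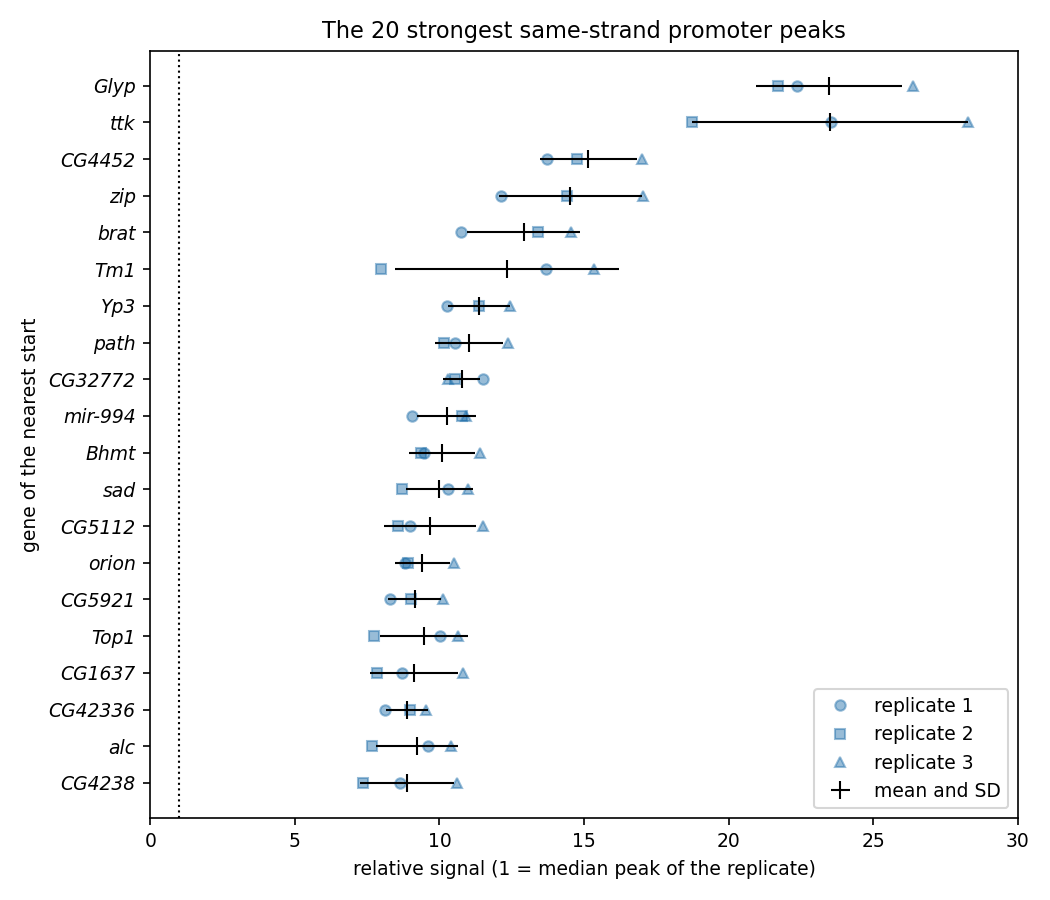
Relative signal (x axis, 1 is the median peak of a replicate, dotted line) of the 20 strongest same-strand promoter peaks, named by the gene of the nearest start (y axis). Points are the 3 replicates and bars the mean and SD; Glyp and ttk stand apart at means of 23.5 each, and the other 18 lie between 8.88 and 15.2.

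Among the 200 strongest members, the widest spread between replicates was at a second summit of orion, with 2.84, 8.90 and 4.24 in replicates 1, 2 and 3. Its value in replicate 2 was that of the stronger orion summit nearby, since the strongest replicate summit within 200 bp was taken for each. Atx2 followed with 3.62, 4.62 and 7.52, then Tm1, then CG3847 with 8.79, 4.96 and 9.27, and Syp with 2.45, 4.43 and 4.40. All 5 were above 2 in every replicate. In all, 138 members shared all 3 replicate values with a neighbouring member for the same reason.

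Same-strand promoter peaks as a class had a median signal close to that of the rest of the list. Their median relative signal was 0.972, 1.01 and 0.992 in replicates 1, 2 and 3, against 1.10, 0.946 and 0.946 at both-strand promoter peaks and 0.991, 1.01 and 1.02 at peaks away from promoters. The difference from both-strand peaks was -0.17, 0.10 and 0.07 on the log2 scale (exact two-sided sign permutation over 3 replicates, p = 1). The direction in replicate 1 was opposite to that in the other replicates, and the mean difference was positive without replicate 1, at 0.08. The difference from peaks away from promoters was -0.03, -0.00 and -0.04 (exact permutation p = 0.25, the smallest that 3 replicates allow, so no such comparison here can pass 0.05).

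Single peaks were tested against the median peak with a moderated one-sample test over all 10265 peaks (limma with Benjamini-Hochberg adjustment, threshold 0.05). Of the 3486 same-strand peaks tested, 1027 (29.5%) were called above the median, against 30.9% of all peaks tested, and 884 (25.4%) were called below it, against 26% of all. The shares of same-strand peaks are close to those of all peaks. Peaks called above had mean relative signals from 1.37 to 23.5 with a median of 2.39, and those called below from 0.350 to 0.733. With the mean log2 signal of each replicate as centre in place of the median, 892 members were called above and 1174 below, against 2784 and 3454 of all peaks, so that calls below outnumbered calls above. Without replicate 2, 535 members were called below, against 1557 of all peaks.

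The upper range of same-strand peaks lay between those of the other classes in all 3 replicates. The 95th percentile of relative signal was 4.11, 4.22 and 4.40 at same-strand peaks, against 3.80, 3.37 and 3.76 at both-strand peaks and 4.81, 4.91 and 5.51 at peaks away from promoters. The highest value of each replicate was at a same-strand peak, at 23.6, 21.7 and 28.3. The highest values at both-strand peaks were 11.4, 9.74 and 12.9, and those away from promoters 21.2, 17.5 and 25.9.

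Same-strand summits lay on either side of the start. Of the 3650 summits, 49.3% (interval 47.7 to 50.9%) were downstream of the nearest start, against 33.4% (31.1 to 35.9%) of both-strand summits. In the 10688 strongest peaks of each replicate the downstream share was 46.7%, 49.5% and 49.6% at same-strand peaks, against 28.8%, 37.5% and 34.4% at both-strand peaks. The same-strand share was higher in all 3 replicates, by 15.0 ± 2.95 percentage points (SD, n = 3; exact permutation p = 0.25), and by 7.76 points when starts within 1000 bp counted. The median summit was 3 bp upstream of the start at same-strand peaks and 41 bp upstream at both-strand peaks.

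Same-strand summits also spread wider, with 37.3% within 100 bp of the nearest start, against 61.0% of both-strand summits, and with median distances of 149 bp and 80 bp. In the replicates the share within 100 bp was 37.0 ± 2.05% at same-strand peaks and 60.5 ± 1.86% at both-strand peaks (SD, n = 3). Part of this contrast is set by the rule: a both-strand summit has at least 2 starts to be near to, and one that lies between diverging starts is upstream of both. How much it sets was not tested.

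**Figure D2:**
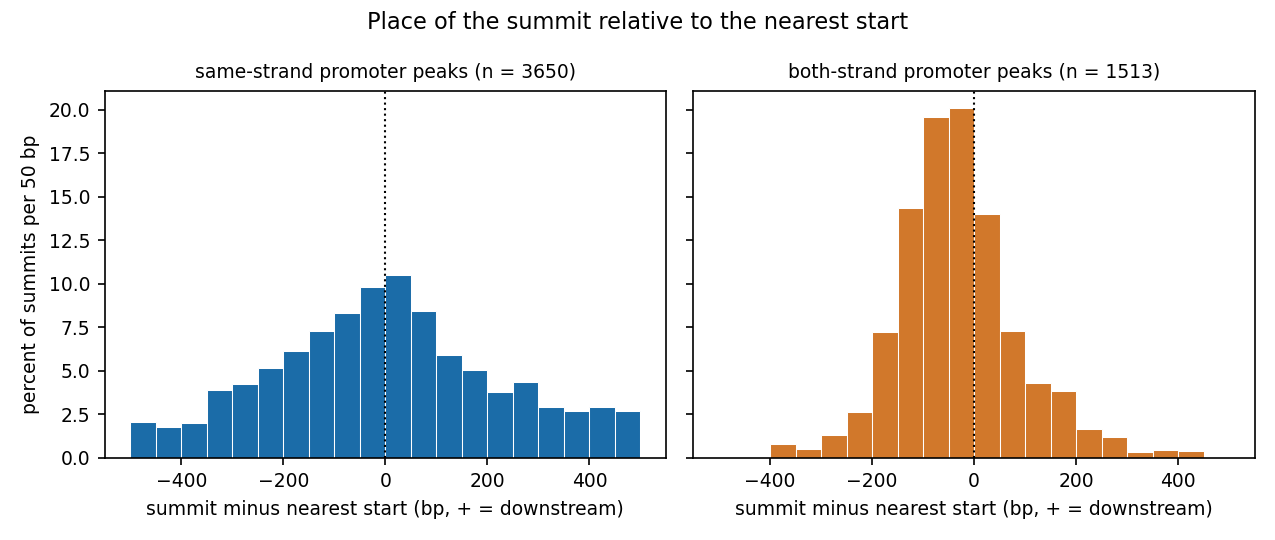
Distance of the summit from the nearest start (x axis, bp, positive downstream) against the percent of summits in each 50 bp bin (y axis), for 3650 same-strand and 1513 both-strand promoter peaks. Same-strand summits peak at the start, at 10.5% just downstream of it, and extend to both limits; both-strand summits pile up just upstream, at 20.1% in the last 50 bp.

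Same-strand summits close to the start were slightly weaker than those farther off. The 2182 tested members over 100 bp from the start had median relative signals of 1.03, 1.12 and 1.03 in replicates 1, 2 and 3, against 0.896, 0.896 and 0.929 at the 1304 within 100 bp. The difference was 0.20, 0.32 and 0.14 on the log2 scale and had the same sign in all 3 replicates (exact permutation p = 0.25). Of the farther summits 31.7% were called above the median peak, against 25.7% of the nearer ones. In the 100 bp just downstream of the start the medians were 0.852, 0.910 and 0.950, and in the 100 bp just upstream 0.932, 0.879 and 0.925.

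Seen from the starts, a smaller share of those with no opposite neighbour had a summit. Of 17815 start positions with no start of the other strand within 500 bp, 3681 (20.7%, interval 20.1 to 21.3%) had a summit within 500 bp. Of 5769 start positions with such a neighbour, 2887 (50.04%, 48.8 to 51.3%) had one. Neighbouring starts can share a summit and each start of a gene counts apart, so both intervals treat linked positions as separate. In the replicates the shares were 20.7%, 20.3% and 20.2% of the starts without a neighbour, against 51.1%, 46.5% and 49.5% of those with one. The difference was -28.6 ± 2.2 percentage points (SD, n = 3) and had the same sign in all 3 replicates (exact permutation p = 0.25). For starts of protein-coding genes the shares in the IDR list were 23.5% and 54.2%.

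The Maf core was present at same-strand summits more often than in the sequence around them. TGCTGAC, searched on both strands within 100 bp of the summit, was in 191 of 3650 windows (5.23%, interval 4.56 to 6.0%), against 2.62% of windows of the same length 1000 bp to either side. Both-strand summits had 3.77% against 2.81% in their own flanks, and summits away from promoters had 8.74% against 2.36%. In the replicates' own strongest peaks the share was 5.24 ± 0.24% at same-strand peaks, 3.91 ± 0.22% at both-strand peaks and 8.71 ± 0.41% at peaks away from promoters (SD, n = 3). Same-strand peaks were lower than peaks away from promoters by 3.56, 3.27 and 3.57 percentage points in replicates 1, 2 and 3 (exact permutation p = 0.25).

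The margin over both-strand peaks was smaller, at 1.68, 0.82 and 1.49 points (exact permutation p = 0.25). It was 2.79 points with a promoter window of 250 bp, 2.21 points among the peaks above the median of each list, and 0.22 points, with the same sign in 2 of 3 replicates, among summits within 100 bp of a start. The palindromic site, TGCTGAC followed at once by TCAGCA with at most 2 mismatches over its length, was in 52 same-strand windows (1.42%), against 0.356% of their flanks. It was in 0.661% of both-strand windows and 2.41% of windows away from promoters.

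Among all 8192 possible 7-base strings, each counted with its complement, the core was the one with the largest excess at same-strand summits. Within 50 bp of the summit it was in 143 windows, against a mean of 35.5 in windows 700 bp to either side, the excess being the difference over the square root of the sum. CACACAC followed with 277 windows against 127, then GCGAAAA with 240 against 112.5, and CTCTCTC was the eighth with 157 against 67. At summits away from promoters the core also ranked first, with 364 windows against 66. At both-strand summits the first was TTAAAAA, with 236 against 52.5, and the third ATCGATA, the body of the DRE, with 153 against 17.

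The cores lay near the summit without a preferred strand. The 191 windows held 197 cores, 103 on the strand of the gene and 94 on the other. Of these, 88 (44.7%) were within 20 bp of the summit, and 14 lay at 81 bp or more. Relative to the start, 98 cores were upstream and 99 downstream. Members with the core had their summits at a median of 10 bp upstream of the start, against 3 bp upstream for members without it.

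Strong same-strand peaks held the core more often. Of the 250 strongest members, 49 (19.6%, interval 15.2 to 24.97%) had it, then 6.8% of ranks 251 to 500, 6.4% of ranks 501 to 1000, 3.6% of ranks 1001 to 2000 and 3.45% (2.68 to 4.45%) of the rest. The weakest ranks came closest to the 2.62% of all members' flanks, which lies just below their interval. The palindrome was in 14 of the 250 strongest (5.6%) and 11 of the 1650 weakest (0.667%).

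The same order held for signal in each replicate. The 186 tested members with the core had median relative signals of 1.65, 1.53 and 1.87 in replicates 1, 2 and 3, against 0.955, 0.994 and 0.969 for the 3300 without it. The difference was 0.79, 0.62 and 0.95 on the log2 scale, 0.78 ± 0.16 on average (SD, n = 3; exact permutation p = 0.25), with all 3 replicates in the same direction. Of members with the core 101 (54.3%) were called above the median peak, against 28.1% of those without it and 30.9% of all peaks tested.

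The margin that goes with the core was larger at same-strand promoters than away from promoters. Away from promoters, the peaks with the core exceeded those without it by 0.41, 0.26 and 0.34 on the log2 scale. The margin at same-strand peaks was larger by 0.38, 0.36 and 0.61, 0.45 ± 0.14 on average (SD, n = 3; exact permutation p = 0.25). At both-strand peaks the margin was 0.59, 0.50 and 0.94, from 54 both-strand peaks with the core; the margin at same-strand peaks was larger by 0.20, 0.11 and 0.0066 (exact permutation p = 0.25).

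The 6-base short site TGCTGA was looked at after the sequences above had been read, so its values are a description. It was in 607 same-strand windows (16.6%), against 12.03% of their flanks, in 12.95% of both-strand windows against 13.3%, and in 23.96% of windows away from promoters against 10.8%. Of the 250 strongest members 36% had it, and of the 20 strongest 12. The 403 tested members with the short site but not the whole core had median relative signals of 1.13, 1.10 and 1.19, against 0.936, 0.984 and 0.940 for the 2897 with neither. They lay between those and the members with the core in each replicate.

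**Figure D3:**
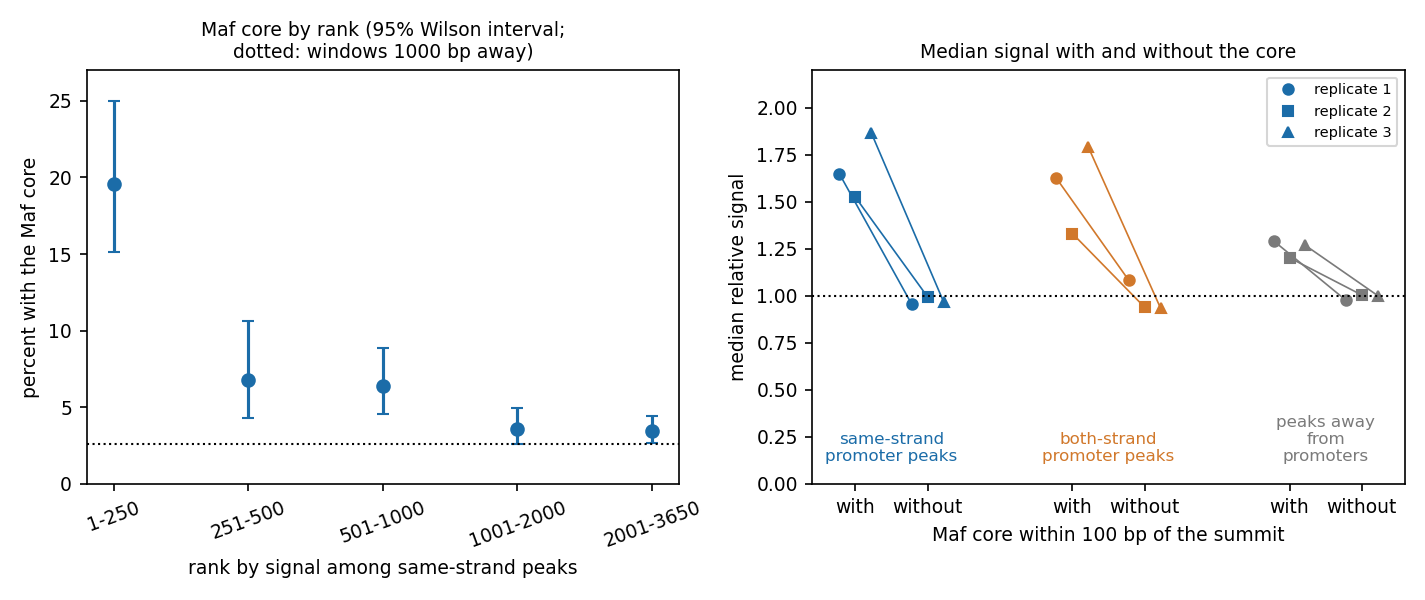
Left, percent of same-strand promoter peaks with the Maf core within 100 bp (y axis) by rank of signal (x axis), with 95% Wilson intervals and, dotted, the 2.62% of windows 1000 bp away; the share is 19.6% in the strongest 250 and 3.45% in the weakest. Right, median relative signal (y axis) of peaks with and without the core (x axis) in the 3 replicates for each class of peak; at same-strand peaks the 3 values with the core lie from 1.53 to 1.87 and those without it from 0.955 to 0.994.

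Several promoter elements differed between same-strand and both-strand peaks by more percentage points than the Maf core did. GAGAG, a string bound by GAGA factor, was in 32.2% of same-strand windows, against 22.2% of their flanks, 16.3% of both-strand windows and 27.3% of windows away from promoters. In replicates 1, 2 and 3 it was in 30.1%, 33.4% and 33.3% of same-strand windows, against 15.5%, 17.3% and 16.7% of both-strand windows. The difference was 15.8 ± 1.06 percentage points (SD, n = 3; exact permutation p = 0.25), and 15.0 points among summits within 100 bp of a start. CACACA was in 25.2% of same-strand windows, against 15.8% of flanks, 15.0% of both-strand windows and 23.7% of windows away from promoters. Its margin over both-strand peaks in the replicates was 10.2 ± 0.22 points (SD, n = 3).

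The initiator string TCAGT was in 34.3% of same-strand windows, against 28.4% of their flanks, 29.0% of both-strand windows and 29.1% of windows away from promoters. Over the replicates it was higher at same-strand than at both-strand peaks by 4.10 ± 1.01 points (SD, n = 3), and by 10.7 points among summits within 100 bp of a start. Against both-strand peaks, elements of broadly used promoters ran the other way, though they were above their own flanks at same-strand peaks. The DRE, TATCGATA, is the site of the factor DREF. It was in 2.44% of same-strand windows, against 0.822% of their flanks, 10.6% of both-strand windows and 0.290% of windows away from promoters. Its difference from both-strand peaks was -7.73 ± 0.07 points over the replicates.

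The Ohler 1 string GGTCACAC was in 2.44% of same-strand windows, against 0.534% of their flanks, 6.35% of both-strand windows and 0.181% of windows away from promoters. TATAAA, counted on either strand anywhere in the window, was in 20.6% of same-strand windows, against 21.8% of their flanks. It was in 36.0% of both-strand windows against 15.2% of their flanks, and in 21.5% of windows away from promoters against 22.8%. The mean GC content of the windows was 42.6% at same-strand peaks, 37.4% at both-strand peaks and 41.7% away from promoters. In windows 1000 bp to either side it was 42.7% and 43.1% at same-strand peaks, and 46.9% and 46.8% at both-strand peaks. The part of GC content in the shares of AT-rich strings was not tested. The E-box CAGCTG was in 12.9% of same-strand windows, 16.9% of both-strand windows and 9.54% of windows away from promoters. The antioxidant-type TGACNNNGC, which can overlap Maf sites, was in 7.84% of same-strand windows, 6.41% of both-strand windows and 10.8% of windows away from promoters. Each of these differences from both-strand peaks had the same sign in all 3 replicates, with the smallest exact permutation p of 0.25.

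Signal differed less with these elements than with the Maf core. Members with GAGAG had median relative signals of 0.956, 1.09 and 1.02 in replicates 1, 2 and 3, against 0.980, 0.980 and 0.974 without it. Members with CACACA had 0.988, 1.08 and 1.04, against 0.969, 0.989 and 0.976. The 86 tested members with the DRE were weaker, at 0.821, 0.731 and 0.850, against 0.975, 1.03 and 0.996 without it, and 18.6% of them were called above the median peak. The 88 with Ohler 1 were likewise lower, at 0.862, 0.798 and 0.906, against 0.975, 1.03 and 0.995. By rank, GAGAG was in 31.2% of the strongest 250 members and 31.3% of the weakest 1650.

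**Figure D4:**
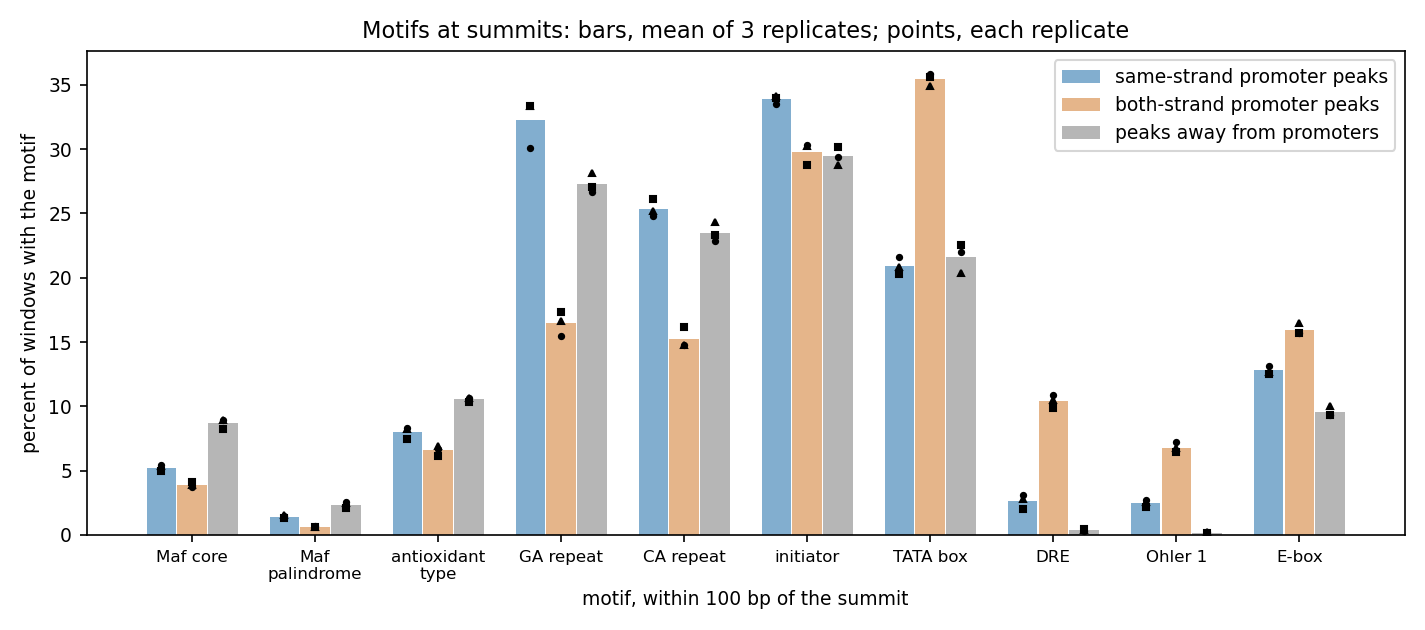
Percent of windows of 100 bp to either side of the summit that hold a motif (y axis) for 10 motifs (x axis) and 3 classes of peak. GA repeat is GAGAG, CA repeat CACACA, and TATA box any TATAAA on either strand, wherever it lies in the window. Bars are means over the replicates' own strongest peaks and points the 3 replicates. Same-strand peaks exceed both-strand peaks most for the GA repeat (32.3% and 16.5%) and fall below them most for TATAAA (20.9% and 35.5%).

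Gene lists describe which kinds of genes carry a same-strand peak. A gene counts where a member summit lies within 500 bp of any of its starts. Over all 13945 protein-coding genes, 2353 (16.9%) had a same-strand peak, 2102 had a both-strand peak and no same-strand one, and 9490 had neither. The median strongest relative signal of genes with a tested same-strand peak was 1.04, and of 2285 such peaks 780 (34.1%) were called above the median peak and 611 below it. Each list below is set beside these values and was not tested. A gene with more annotated starts or summits has more ways to count, and its strongest peak is then taken from several. Among the listed genes, cnc and kay had 5 member summits each and Pdp1 had 6. No adjustment was made for this.

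Of 23 genes of the eggshell and yolk, 13 had a same-strand peak, 1 had a both-strand peak alone, and 9 had none, among them the chorion genes Cp15, Cp16, Cp18, Cp19 and Cp36. Of the 13, 11 were called above the median peak and 1 below it, and the median strongest relative signal was 4.09. After Yp3, the vitelline membrane gene Vm34Ca had 7.18, 7.04 and 6.72 in replicates 1, 2 and 3 (2L, 13411198 to 13412185). The yolk protein genes Yp1 and Yp2, which lie side by side on X, had 6.63, 6.45 and 7.34, and 6.14, 6.02 and 6.99. These 3 peaks varied little between replicates, with SDs of 0.23, 0.47 and 0.53.

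Genes that regulate the gonad soma had a same-strand peak in 20 of 29 cases, a both-strand peak alone in 1 and none in 8. Of these peaks 10 were called above the median peak and 5 below, with a median of 1.44. Those called below were at eya, da, ct, dsx and slbo, named here after their values were seen. The slbo peak had 0.784, 0.324 and 0.464 in replicates 1, 2 and 3, and the dsx peak 0.463, 0.738 and 0.185. After ttk, apt, a regulator of border cell migration, had 5.63, 5.07 and 8.13 (2R, 23566363 to 23568145). The ecdysone-induced ETS factor gene Eip74EF had 5.09, 4.84 and 5.58 (3L, 17576093 to 17576956), and the zinc finger gene br, also induced by ecdysone, 3.08, 3.61 and 4.83. The apt and Eip74EF windows held the Maf core and the br window did not.

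Somatic piRNA genes, a list that counts tj itself, had a same-strand peak in 9 of 18 cases, a both-strand peak alone in 2 and none in 7. Of the 9, 6 were called above the median peak and 1 below it, with a median of 2.38. The peak at tj is 1 of the 6, and its mean relative signal is that median. The peak called below was at Su(var)2-10, with 0.462, 0.590 and 0.502 in replicates 1, 2 and 3, chosen here after its values were seen. The strongest were at nxf2, a nuclear export factor relative that acts in transcriptional silencing, with 4.95, 5.55 and 6.27 (3L, 16579899 to 16580577), and at the co-chaperone gene shu with 5.28, 5.32 and 6.22. The helicase gene armi had 4.83, 4.43 and 6.77, and SoYb, a relative of fs(1)Yb, had 3.70, 3.91 and 4.02. All 4 were above 3.6 in each replicate.

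Of 18 bZIP genes, 13 had a same-strand peak, 2 had a both-strand peak alone, one of which was the small Maf gene maf-S, and 3 had none. Of the 13, 8 were called above the median peak and 2 below, with a median of 1.70. Xbp1, of the unfolded protein response, led with 8.03, 6.83 and 9.97 (2R, 21143148 to 21143893) and its window held the Maf core. The gene of the antioxidant factor cnc had 4.53, 4.62 and 5.46, the clock gene vri 2.88, 3.54 and 4.40, and CrebB 3.15, 4.0 and 3.21. The promoter of tj itself had 1.44, 2.68 and 3.00, with replicate 1 the lowest (2L, 19463799 to 19464511). It was called above the median peak (limma adjusted p = 0.012), and not without replicate 2 (adjusted p = 0.069).

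Of 18 cytoskeletal genes, 11 had a same-strand peak, with a median of 2.44, 7 called above and 3 below. Besides zip and Tm1, the myosin regulatory light chain gene sqh had 5.41, 6.72 and 5.48, and jar, the gene of myosin VI, had 4.78, 4.87 and 5.29. Of 19 genes of the basement membrane and integrins, 14 had a same-strand peak, with a median of 1.46, 6 called above and 1 below. The metalloproteinase inhibitor gene Timp had 5.90, 3.65 and 6.79, the laminin genes LanB2 and wb 3.30, 2.85 and 3.44, and 2.95, 2.77 and 3.72, and SPARC 2.13, 1.99 and 2.10. The windows at Timp and LanB2 held the Maf core.

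Of 32 matched genes of signalling in the follicle epithelium, 17 had a same-strand peak, 6 a both-strand peak alone and 9 none. The median was 1.91, with 10 of 16 tested called above and 4 below, and none of the 17 strongest windows held the core. The receptor gene Egfr had 4.47, 4.14 and 5.74, the Dpp receptor gene tkv 3.38, 3.20 and 3.28, and neur, a ubiquitin ligase gene of the Notch pathway, 2.32, 2.38 and 2.08. The ETS repressor gene aop had 1.44, 2.61 and 2.21 and was called above the median peak (limma adjusted p = 0.012), but not without replicate 2 (adjusted p = 0.061).

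Housekeeping lists divided between the classes of promoter. Of 92 ribosomal protein genes, 41 had a same-strand peak and 35 a both-strand peak alone. Of the 40 tested, 12 were called above the median peak and 8 below, with a median of 1.03, close to that of all coding genes. RpS5b, a paralog of RpS5a, had 7.62, 7.77 and 9.17 (3R, 14901471 to 14902386), RpS24 had 3.73, 3.35 and 3.61, and RpS23 had 3.65, 2.74 and 4.27, all with summits over 400 bp upstream of the start. RpS10b had 4.0, 2.80 and 1.40, a call above the median peak (limma adjusted p = 0.016) that was lost without replicate 1 (0.051) or 2 (0.086).

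Of 34 translation factor genes 15 had a same-strand peak, with 5 called above and 2 below. They were led by eIF5 with 4.95, 4.23 and 4.79, the elongation factor genes eEF1gamma with 3.29, 2.59 and 1.91 and eEF2 with 1.47, 1.5 and 1.82, and the initiation factor gene eIF4H1 with 1.42, 1.87 and 1.85. The calls of eEF2 and eIF4H1 were lost without replicate 2 (limma adjusted p = 0.059 and 0.065) and without replicate 3 (0.073 and 0.054). Of 31 proteasome genes 3 had a same-strand peak (9.68%, against 16.9% of all protein-coding genes), 12 a both-strand peak alone and 16 none. The 3 were Rpn11, with 5.87, 4.97 and 6.41, Rpt6, with 1.08, 0.727 and 1.07, and Rpn12, with 0.564, 0.677 and 0.658. Rpn12 was called below the median peak (limma adjusted p = 0.016), a call lost without any of the replicates (0.050 to 0.077).

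**Figure D5:**
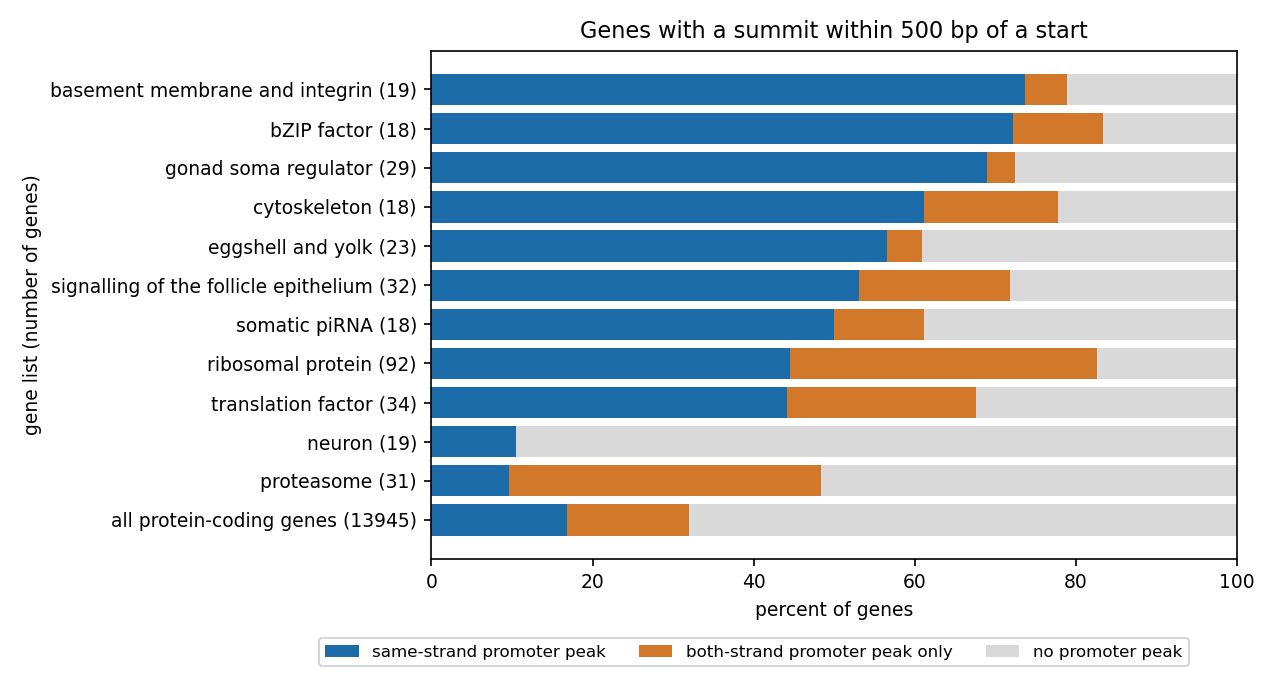
Percent of genes (x axis) of each list (y axis, number of genes in parentheses) with a same-strand promoter peak, with a both-strand promoter peak alone, or with neither. The share with a same-strand peak is 73.7% for basement membrane and integrin genes and 9.68% for proteasome genes, against 16.9% of all protein-coding genes in the lowest bar.

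Of 9 marker genes of the gonad soma 7 had a same-strand peak, with fs(1)Yb at a both-strand peak alone and zfh1 at none. Besides ttk, Yp1, the vitelline membrane gene Vm26Aa and tj, these were piwi, with 0.880, 0.956 and 2.24 in replicates 1, 2 and 3, eya, with 0.357, 0.725 and 0.681, and the adhesion gene Fas3, with 0.485, 0.412 and 0.677. The last 2 were called below the median peak (limma adjusted p = 0.034 and 0.010); the call of Fas3 was lost without replicate 2 (0.056), and that of eya without any of the replicates (0.055 to 0.107). Of the germline markers vas, bam, osk and aub, and of the muscle markers Mhc, Mlc2, wupA and up, none had a promoter peak of either kind. Most protein-coding genes, 9490 of 13945, likewise had neither, so lists of 4 genes say little. Of 5 neuronal markers elav had a same-strand peak, with 3.72, 3.89 and 2.86 (X, 523255 to 523715). In the wider list of 19 neural genes the glial gene repo was the other, with 0.550, 0.280 and 0.531.

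Some members lay at genes without a protein product. The 222 tested members at non-coding RNA genes had median relative signals of 1.06, 1.24 and 1.24 in replicates 1, 2 and 3, and 34.2% were called above the median peak, against 29.0% of the 3202 at protein-coding genes. Beside mir-994 they were led by lncRNA:CR31044, with 7.92, 7.68 and 8.86. The 34 members at tRNA genes had medians of 1.15, 1.19 and 1.35, and the 6 at snRNA genes 0.469, 0.565 and 0.653. Near-identical copies of such genes can share reads, so their values are uncertain.

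A few genes carried many same-strand summits. Svil, which encodes a supervillin relative, had 12 along its several starts (3L, 2377655 to 2499226), with mean relative signals from 0.529 to 1.91 at the 10 matched in all 3 replicates. The gene of the Hippo pathway factor Scalloped, sd, had 8 (X, 15804370 to 15827682), with 0.607 to 2.46 at the 5 so matched. The kinase subunit gene SNF4Agamma had 7 (3R, 21140739 to 21214269), with 0.433 to 3.29 at the 6 so matched. They were at 8 of 16, 5 of 7 and 7 of 11 annotated start positions of these genes, and 1 summit, at Svil, held the Maf core.

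By chromosome, 760 members lay on X, 806 on 3R, 738 on 3L, 727 on 2R, 602 on 2L and 17 on chromosome 4. Those on chromosome 4 were the weakest group, with medians of 0.575, 0.689 and 0.738 in replicates 1, 2 and 3, and those on X had 1.06, 1.07 and 1.02. By annotation at the summit, medians were highest at exons of non-coding genes, at 1.11, 1.29 and 1.25, and those in 3' UTRs were 0.848, 0.786 and 0.821.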

How the data were processed

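Each of the 3 replicates, the pooled replicates and the IDR comparison gave a deposited list of peaks on dm6. Per the notes deposited with the lists, each was made against a control alignment, and the replicate lists include background as input for IDR. The signal column used here is the peak caller's value as the authors deposited it, with no stated unit. The sources used do not name the aligner, the caller, a version or a threshold for IDR. The IDR list held exactly the 10688 strongest summits of the pooled list. Lists on dm3 were not used. No value column was left unmapped. Depth is unknown, so no interval rests on reads.

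Starts and UTRs came from Ensembl release 115 (BDGP 6.54) and sequence from NCBI Release 6, the same assembly; sequences from 2R are not printed. For each IDR summit, the strongest summit of a replicate no more than 200 bp away was taken and scaled to the replicate's median over the 10265 peaks matched in all 3. Each peak was tested against 0 on the log2 scale with limma 3.58.1 (R 4.3.3), Benjamini-Hochberg adjusted over all peaks. Classes were compared over the 3 replicates by exact two-sided sign permutation, using each replicate's 10688 strongest peaks for positions, motifs and starts. Spans of motifs were 100 bp to either side of the summit, with flanks 1000 bp away. Of the written symbols, argos, Dl, nudel and nos did not match 1 gene and were not used.

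The text names the 20 strongest members, up to 4 genes per list with the strongest peak, the 5 most variable of the 200 strongest, the 3 genes with most summits, the markers, and for the non-coding genes the strongest. The members, lists and tests were chosen with earlier results of these data known. Alternatives were other windows, start sets, peak sets, match distances, centring, variance prior and motif spans, and leaving out each replicate. The scripts were tested on simulated data. Python 3.11.15, NumPy 2.4.6, pandas 2.3.3, SciPy 1.17.1 and Matplotlib 3.10.9 were used.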

Additional observations from a re-analysis of the deposited data

How the results depend on the processing

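The share of same-strand peaks was 29.6% with a promoter window of 250 bp, 37.4% with 1000 bp and 33.2% with starts of protein-coding genes, against 34.2% as reported; the other alternatives stayed within the reported interval, and the pooled list gives the same peaks. The difference in signal from both-strand peaks, -0.00 on the log2 scale on average, turned positive with the 1000 bp window (0.0073), with matches within 50 bp (0.020) and among peaks above the list's median (0.15), and ran from -0.052 to 0.083 when a replicate was left out. The difference from peaks away from promoters was 0.0068 with the 1000 bp window. Members called below the median peak numbered 535 to 636 when a replicate was left out, against 884, and all peaks called below 1557 to 1957, against 2666. For CACACA the difference from peaks away from promoters was -1.56 points with the 250 bp window, against 1.89. For TATAAA it was 0.87 with that window, 0.19 among peaks above the list's median, and -1.33 to 0.036 when a replicate was left out, against -0.72. The cause of these shifts was not tested. The other differences in signal, position and motifs for which alternatives were run kept their direction. For the share of starts with a summit the only alternative was starts of protein-coding genes. None was run for the difference between classes in the margin that goes with the core. The alternatives of 1 summit per region, summits within 100 bp of a start and the short site were added after the data were seen. Differences between classes of peak were taken within each replicate; a replicate block between groups of samples could not be fitted because the series holds 1 group. Depth is unknown, so peaks missed for lack of reads cannot be counted.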
